A study of Sus scrofa with 4 samples.

Results

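SHOX2 (ENSSSCG00000025238) was followed by its gene symbol through 4 single-cell RNA libraries of pig meniscus, as 1 of the 21280 features that the files list. It was singled out because its UMI counts (unique molecular identifiers, 1 per captured RNA molecule) had already been seen to be higher in the lateral than in the medial meniscus. Its lateral and medial levels, and its levels in matrix, vascular and immune cells, are therefore described here with no test. Meniscus cells of Sus scrofa were captured with the 10x Genomics 3' chemistry after the synovium had been cut away, the tissue divided into a white and a red zone, and the cells released with pronase and collagenase. The 4 libraries came from the lateral meniscus, white zone, the medial meniscus, white zone, the lateral meniscus, red zone, and the medial meniscus, red zone, 1 of each, with no treatment, strain, age or animal in the labels. Any p-value measures only the spread between these 4 libraries, shared across genes. What sets the lateral apart from the medial meniscus cannot be told apart from what sets 1 library apart from another.

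SHOX2 is a homeobox transcription factor and the closest relative of SHOX, the gene whose loss shortens the limbs in people. In mouse embryos Shox2 is active in the mesenchyme of the proximal limb, where the upper limb bones fail to grow without it, and in the pacemaker region of the heart. The menisci are crescents of fibrocartilage between femur and tibia. Their outer red zone carries vessels, and their inner white zone is described as free of them.

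In the pig genome build Sscrofa11.1, RefSeq places SHOX2 on chromosome 13, from base 97879586 to base 97892276. The nearest gene with a symbol on the higher side is RSRC1 (97893815 to 98338108), 1539 bases away, which encodes a protein linked to RNA splicing. On the lower side it is VEPH1 (96986322 to 97366206), 513380 bases away. RSRC1 stood at 31.8 CPM (UMIs per 1000000 UMIs) in lateral white, 27.2 CPM in medial white, 35.5 CPM in lateral red and 39.5 CPM in medial red, and VEPH1 had 1, 0, 2 and 1 UMIs in that order. RSRC1 thus had ratios of lateral over medial of 1.17 in the white zone and 0.898 in the red zone, both close to 1, while VEPH1 was too rare to compare.

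The files held 7382 barcodes for lateral white, 7807 for medial white, 5753 for lateral red and 6840 for medial red, with 13719381, 14902274, 9666319 and 11878284 UMIs. After a filter on UMIs, genes and mitochondrial share, 27693 of 27782 barcodes stayed as cells, and the median cell of a library had 1473 to 1617 UMIs. Cells were grouped by marker counts. Matrix cells carried cartilage, fibrocartilage or fibroblast markers and fell short of the minimum for every other set. Mural cells carried markers of smooth muscle cells and pericytes, vascular cells were mural or endothelial, and immune cells were myeloid or lymphoid. The summed matrix markers ran at 19717 to 69292 CPM in matrix cells, against 83.4 to 843 CPM in mural, endothelial, myeloid and lymphoid cells. The summed mural markers ran at 8428 to 12906 CPM in mural cells, against 44.5 to 175 CPM in matrix cells. These sums follow from the rule that formed the groups. Between libraries, 78 barcode sequences occurred in 2 of them, and these barcodes held 10, 3, 3 and 6 SHOX2 UMIs in lateral white, medial white, lateral red and medial red.

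Over all cells SHOX2 was abundant in the lateral white zone and scarce in the medial white zone. Lateral white cells gave 1346 SHOX2 UMIs, or 98.1 CPM (95% exact Poisson interval 92.9 to 103). Medial white cells gave 159 UMIs, or 10.7 CPM (9.08 to 12.5). The intervals lie far apart, and the ratio of lateral over medial was 9.20 (exact conditional binomial interval 7.80 to 10.9). All intervals here are at 95% and cover counting error only, not the difference between animals or preparations.

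The red zone showed the same direction with a much smaller ratio. Lateral red cells gave 965 UMIs, or 100.4 CPM (94.2 to 107), and medial red cells 790 UMIs, or 66.7 CPM (62.1 to 71.5). The ratio was 1.51 (1.37 to 1.66). Lateral white and lateral red were alike over all cells, with a ratio of white over red of 0.977 (0.899 to 1.06), and the medial white library was the lowest of the 4.

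For scale, 3.54% of the 10761 genes with at least 100 UMIs were at least 2-fold higher in lateral than in medial over all white cells, 1.21% over all red cells, and 0.325% in both zones. SHOX2 passed this in the white zone only. A ratio at least as high as that of SHOX2 in each of the 2 zones was found in 12 of these genes (0.112%), SHOX2 included. These shares describe genes alongside 1 chosen for this difference, and are no test of it.

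SHOX2 was detected in a minority of cells in every library, mostly as a single UMI. At least 1 UMI was found in 1131 of 7382 lateral white cells (15.3%, exact binomial interval 14.5 to 16.2), against 104 of 7807 medial white cells (1.33%, 1.09 to 1.61). In the red zone the share was 13.4% of lateral cells (762) and 9.39% of medial cells (639). With each cell thinned to 1000 UMIs, and shallower cells left out, the shares became 9.22% in lateral white, 0.76% in medial white, 8.83% in lateral red and 6.14% in medial red, in the same order of lateral and medial.

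Cells with SHOX2 averaged 1.19 UMIs of it in lateral white, 1.53 in medial white, 1.27 in lateral red and 1.24 in medial red, so the few medial white ones held the most per cell. The largest count in 1 cell was 5 in lateral white, 8 in medial white and 5 in both red libraries, and the cell with 8 was one set aside for markers of more than 1 type. Such mixed cells held 33 of the 159 UMIs of medial white, in 18 cells. Cells with 3 or more UMIs numbered 28 of the 1131 positive cells in lateral white and 13 of the 104 in medial white, and 3 of those 28 and 5 of those 13 were mural.

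**Figure D1:**
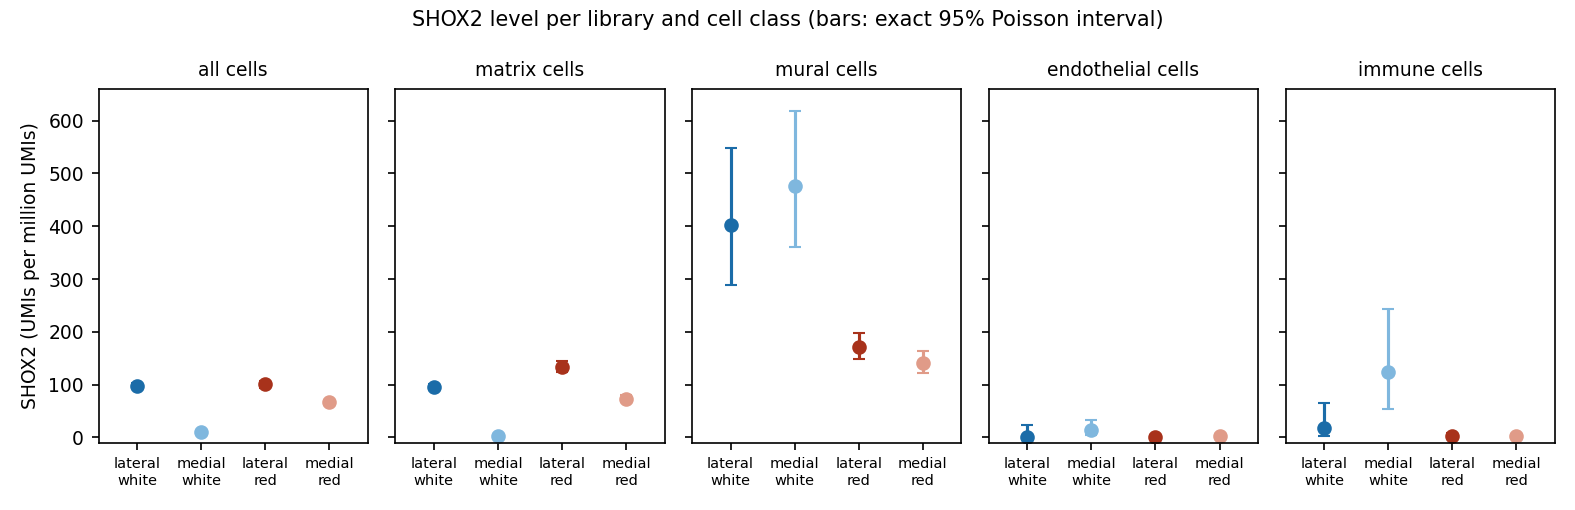
SHOX2 level (UMIs per 1000000 UMIs, linear axis) in each library, for all cells and for matrix, mural, endothelial and immune cells; points are single libraries and bars are exact 95% Poisson intervals. Matrix cells reach 95.8 CPM in lateral white and 3.16 CPM in medial white, whereas mural cells of the white zone reach 403 and 477 CPM in those libraries.

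Matrix cells, which make the collagen and proteoglycan of the tissue, carried the white-zone difference. In lateral white, 6815 matrix cells held 1233 SHOX2 UMIs, or 95.8 CPM (90.5 to 101). In medial white, 7230 matrix cells held 44 UMIs, or 3.16 CPM (2.30 to 4.25). The ratio of lateral over medial was 30.3 (22.4 to 41.9). SHOX2 was found in 15.4% of lateral white and 0.429% of medial white matrix cells, and in 9.17% and 0.268% of them after thinning.

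The few UMIs of medial white matrix cells were set beside those of endothelial cells. Against the 0.429% of medial white matrix cells, at a median of 1634 UMIs per cell, 0.909% of endothelial cells of the same library (2 of 220, interval 0.110 to 3.25) had a SHOX2 UMI, at a median of 1120.5. The matrix share lies within the endothelial interval, so at this depth it cannot be told from the share in endothelial cells. That comparison is weak, since the 2 endothelial cells held 5 UMIs, up to 4 in 1 cell, and in the other libraries the endothelial share was 0 to 0.467%. The ratio of 30.3 rests on this low medial count. Of the 44 UMIs, 11 lay in 14 matrix cells of a cluster made up mostly of cells with markers of more than 1 type. Without such clusters 33 UMIs were left in 7216 cells, or 2.38 CPM.

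In the red zone matrix cells of both menisci carried the gene. Lateral red matrix cells (2354) held 599 UMIs, or 134 CPM (123 to 145), and medial red matrix cells (3100) held 421 UMIs, or 73.2 CPM (66.3 to 80.5). The ratio was 1.83 (1.61 to 2.08). SHOX2 UMIs were found in 19.8% of lateral red and 11.0% of medial red matrix cells, and in 11.7% and 6.83% after thinning. The highest matrix level of the 4 libraries was thus in lateral red, and the 4 intervals do not overlap.

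Among the 9493 genes with at least 100 UMIs in matrix cells, 2.73% were at least 2-fold higher in lateral than in medial white and 2.23% in lateral than in medial red. A ratio at least as high as that of SHOX2 was found in 9 genes in the white zone (0.0948%, SHOX2 included) and in 277 genes in the red zone (2.92%). Of the 2 genes that reached it in each zone (0.0211%), SHOX2 was the 1 with a symbol. SHOX2 was chosen for its place in this ranking, so nothing is read from it.

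Matrix cells of the 2 menisci fell into different clusters, so SHOX2 was also read within clusters that were made without it. Lateral white matrix cells were mostly in the clusters led by CP and LBP, by LCN2 and HPS5, and by WIF1 and ENPP2, while medial white ones were mostly in those led by ANGPTL7 and OMD, by CILP and CLEC3A, and by COL2A1 and COL9A1. All 6 of these clusters had at least 50 cells in both white libraries. In every one of them the lateral cells held more SHOX2 (CPM) than the medial cells.

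The cluster led by COL2A1 and COL9A1, the collagens of hyaline cartilage, had 123 CPM in 279 lateral white cells and 0 UMIs in 1159 medial white cells. That allows a share of cells with a UMI of up to 0.259% (3 counts) or 0.318% (exact 95% upper limit), and says nothing of cells that express the gene below detection. With 3 counts put in place of the 0, the ratio of lateral over medial was 77.4. That value leaves out the counting error of the 47 lateral UMIs. The cluster led by CILP, which encodes an intermediate-layer cartilage protein, and CLEC3A had 93.5 CPM in lateral and 2.70 CPM in medial, a ratio of 34.6 (17.4 to 76.4). These cartilage-gene clusters therefore showed the difference as well.

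In the cluster led by ANGPTL7 and OMD the level was 129 CPM in lateral and 2.30 CPM in medial white cells, a ratio of 55.8 (29.7 to 116). The clusters led by CP and LBP and by LCN2 and HPS5 had ratios of 41.4 (16.05 to 152) and 54.0 (14.8 to 448). The lowest of the white-zone ratios, 13.1 (4.43 to 63.8), was in the cluster led by WIF1, a secreted WNT inhibitor, and ENPP2, which rested on 3 UMIs in 263 medial cells. The intervals of the clusters with UMIs in both libraries overlap, so these counts do not resolve an order among those 5. The value of the COL2A1 cluster has no interval, so it is not ranked against them.

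Red-zone matrix clusters were less uniform. The cluster led by MYOC and CRABP1, with COL1A1 and COL1A2 among its 10 leading genes, had 321 UMIs in 1189 lateral red cells and 16 UMIs in 817 medial red cells, or 140 CPM and 11.5 CPM. Its ratio was 12.2 (7.37 to 21.5). The small cluster of ANGPTL7 and OMD had 118 CPM in 107 lateral red cells and 22.7 CPM in 62 medial red cells, a ratio of 5.201 (1.29 to 45.5) on 23 and 2 UMIs. In these 2 clusters the medial red cells were also low in SHOX2.

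The other fibroblast clusters of the red zone carried the gene in both menisci. That led by CXCL14, a chemokine, and LUM, the collagen-binding proteoglycan lumican, had 117 CPM in lateral red and 125 CPM in medial red, a ratio of 0.933 (0.737 to 1.18). That led by SFRP4, a secreted WNT modulator, and POSTN, the matrix protein periostin, had 142 CPM in lateral red and 75.8 CPM in medial red, a ratio of 1.87 (1.45 to 2.40). The pooled red ratio of 1.83 therefore joins clusters with ratios from 0.933 to 12.2, and the intervals of the MYOC and CXCL14 clusters do not overlap.

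**Figure D2:**
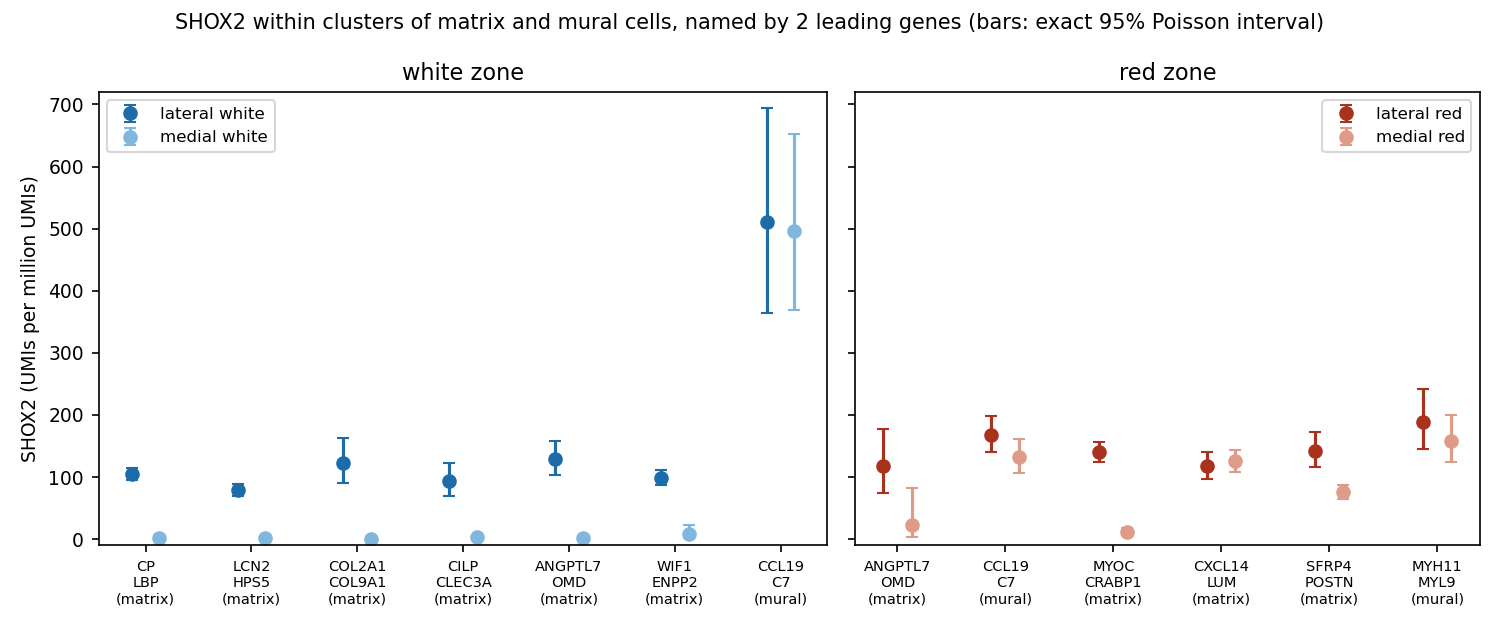
SHOX2 level (UMIs per 1000000 UMIs, linear axis) within clusters that hold at least 50 matrix or mural cells in both libraries of a zone; lateral points stand left of medial ones and bars are exact 95% Poisson intervals. White matrix clusters lie between 78.7 and 129 CPM in lateral and at most 7.53 CPM in medial, while the mural cluster of CCL19 and C7 has 510 and 496 CPM.

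Mural cells, grouped by markers of the smooth muscle cells and pericytes that wrap vessels, carried SHOX2 in all 4 libraries, in medial white included. The 88 mural cells of lateral white held 40 UMIs, or 403 CPM (288 to 549), and the 100 of medial white held 56 UMIs, or 477 CPM (360 to 619). The 714 mural cells of lateral red held 200 UMIs, or 172 CPM (149 to 197), and the 745 of medial red held 176 UMIs, or 142 CPM (122 to 164). Lateral and medial intervals overlap in each zone, with ratios of 0.846 (0.549 to 1.29) in white and 1.21 (0.983 to 1.49) in red. A difference between menisci in mural cells was not detectable at this depth, and the white interval does not reach the matrix ratio of 30.3.

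SHOX2 was found in 30.7% of lateral white, 35.0% of medial white, 23.4% of lateral red and 18.7% of medial red mural cells. After thinning the shares were 26.7%, 39.5%, 15.2% and 12.9%, with the white-zone shares again above the red ones. White mural cells were the shallower ones, with medians of 958.5 and 978 UMIs in lateral and medial, against 1414.5 and 1515 UMIs in red, and thinning left 41 and 46 of the white cells. In each library the level was higher in mural than in matrix cells, with ratios of 4.21 (2.99 to 5.77) in lateral white, 151 (99.7 to 229) in medial white, 1.28 (1.09 to 1.51) in lateral red and 1.94 (1.62 to 2.32) in medial red.

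Mural cells fell into 2 clusters. The larger, led by CCL19, a chemokine, and C7, a complement component, held 72 of the lateral white, 87 of the medial white, 487 of the lateral red and 416 of the medial red mural cells, and none of the 9 mural markers was among its 10 leading genes. Its SHOX2 level was 510 CPM in lateral white, 496 CPM in medial white, 167 CPM in lateral red and 132 CPM in medial red. The cluster led by MYH11, the heavy chain of smooth muscle myosin, and MYL9 had 189 CPM in lateral red and 159 CPM in medial red, a ratio of 1.19 (0.835 to 1.69), and only 15 and 11 mural cells in lateral and medial white. Both clusters thus held the gene in the red zone, and the high white-zone level came from the CCL19 cluster. The MYH11 cluster held 0 and 1 SHOX2 UMIs in its lateral and medial white mural cells, which are too few to compare.

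**Figure D3:**
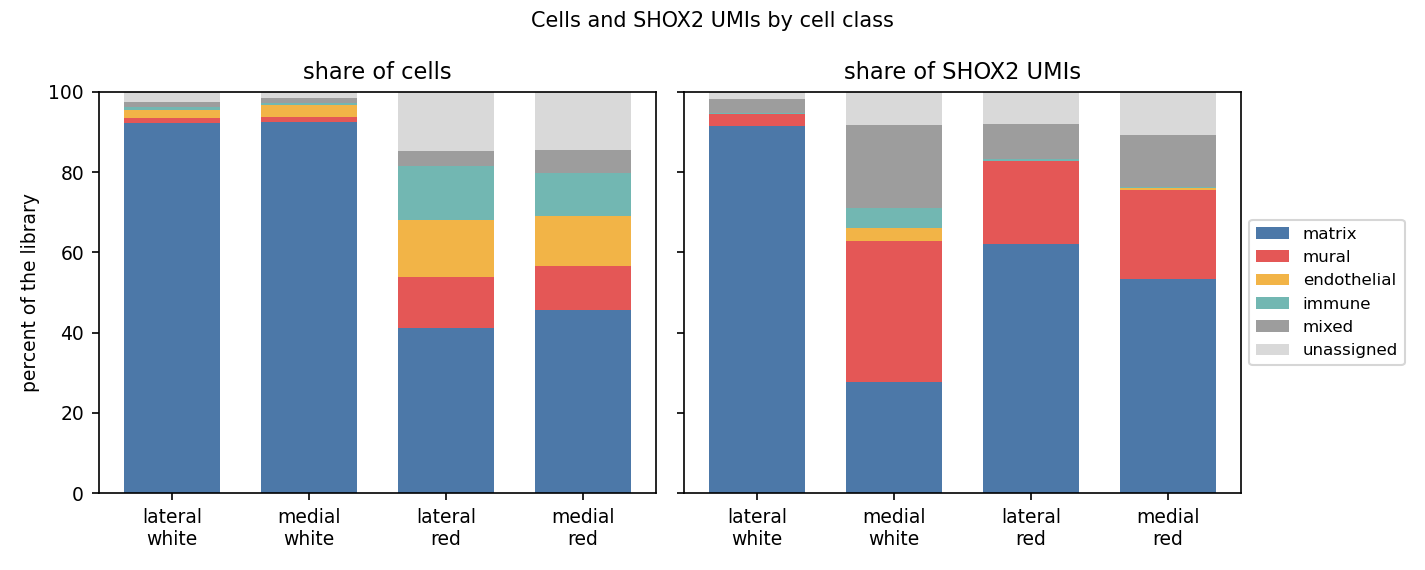
Percent of each library's cells (left) and of its SHOX2 UMIs (right) that fell in matrix, mural, endothelial, immune, mixed and unassigned cells. Matrix cells hold 91.6% of the SHOX2 UMIs of lateral white but 27.7% of those of medial white, where mural cells hold 35.2%.

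The cells that held the SHOX2 UMIs differed between the white libraries, which had nearly the same shares of matrix and mural cells, though their matrix cells fell into different clusters. Matrix cells were 92.3% of lateral white and 92.6% of medial white cells, and held 91.6% and 27.7% of the SHOX2 UMIs. Mural cells were 1.19% of lateral white and 1.28% of medial white cells, and held 2.97% and 35.2% of them. In the red zone matrix cells held 62.1% in lateral and 53.3% in medial, and mural cells 20.7% and 22.3%.

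Endothelial cells, which line the vessels, were at or near 0. They had 0 UMIs in 139 lateral white cells, which allows a share of cells with a UMI of up to 2.16% (3 counts) or 2.62% (exact 95% upper limit), 5 UMIs in 220 medial white cells, 1 in 811 lateral red cells and 4 in 857 medial red cells. Their levels were 14.2 CPM in medial white, 0.931 CPM in lateral red and 2.76 CPM in medial red. Vascular cells as 1 group, endothelial and mural together, stood at 154 CPM in lateral white, 130 CPM in medial white, 89.7 CPM in lateral red and 66.9 CPM in medial red. Nearly all SHOX2 of the vascular group was in its mural cells. The white zone is described as free of vessels, and where in the tissue the vascular cells of the white libraries lay was not tested.

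Immune cells were low in the red zone, with 4 UMIs in 772 lateral cells (3.09 CPM) and 2 UMIs in 719 medial cells (2.00 CPM). Lateral white had 2 UMIs in 68 immune cells (18.2 CPM). In medial white the level was 124 CPM (53.5 to 244), from 8 myeloid cells with 1 UMI each among 45 (17.8%, 8.002 to 32.1). Lymphoid cells had 0 UMIs in 169 cells of lateral red and 82 of medial red, and in 5 cells of lateral white. The red values allow shares of cells with a UMI of up to 1.78% and 3.66% (3 counts), or 2.16% and 4.40% (exact 95% upper limits). The medial white myeloid cells, at a median of 1275 UMIs, also held summed matrix markers at 542 CPM and mural markers at 15.5 CPM, and the part of RNA from other cells in their SHOX2 was not tested.

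Ordered by level, white-zone mural cells came first (403 CPM in lateral, 477 CPM in medial), then red-zone mural cells (172 CPM in lateral, 142 CPM in medial) and lateral red matrix cells (134 CPM). Immune cells of medial white (124 CPM) and matrix cells of lateral white (95.8 CPM) and medial red (73.2 CPM) followed. Below them stood immune cells of lateral white (18.2 CPM), endothelial cells of medial white (14.2 CPM), matrix cells of medial white (3.16 CPM) and the immune and endothelial cells of the red zone (0.931 to 3.09 CPM), with endothelial cells of lateral white at 0. Intervals overlap within the white mural pair, within the red mural pair, between medial red mural and lateral red matrix cells, and between medial white immune cells and their neighbours on either side. The medial white immune interval (53.5 to 244 CPM) in fact spans from red mural down to lateral white immune cells. That of lateral white immune cells (2.20 to 65.8 CPM) also overlaps every group below it. The groups at 3.16 CPM and below overlap each other, and all but medial white matrix cells overlap the group at 14.2 CPM. The endothelial interval of medial white (4.60 to 33.0 CPM) lies just above that of its matrix cells, but its 5 UMIs came from 2 cells.

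The zone was not the contrast that singled SHOX2 out. White was tested against red over the 2 menisci with edgeR's quasi-likelihood test, with the meniscus as a term. Benjamini-Hochberg adjustment ran over all genes tested. The all-cell and matrix sums also gave the lateral over medial ratios that singled SHOX2 out, with a low medial white level. The zone tests on those sums are thus not independent of that choice. In mural cells SHOX2 was higher in the white than in the red zone, with a log2 difference of 1.45 ± 0.28 (SE) and an adjusted p of 1.79e-05 by edgeR. The ratio of white over red was 2.35 (1.63 to 3.31) in the lateral and 3.36 (2.44 to 4.56) in the medial meniscus, so both pairs of libraries moved the same way. Of the 6596 genes tested in mural cells 5.26% were called in either direction, 2.05% higher in white. Summed matrix markers in mural cells were higher in white too, at 726 CPM in lateral and 843 CPM in medial white, against 416 CPM in lateral and 307 CPM in medial red, and their part in the SHOX2 difference was not tested. The test was added after the mural levels had been seen, and it rests on 1 residual degree of freedom. The edgeR test moderates the spread of each gene with that of the other genes tested. The small adjusted p thus leans on this shared spread, not on SHOX2's own spread between libraries alone. The difference remained called under every alternative run on all 4 libraries, at log2 values from 1.31 to 1.52, with a DESeq2 adjusted p of 0.0357. With 1 library left out and no meniscus term, the log2 differences ran from 1.26 to 1.56.

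In matrix cells the zone difference did not pass. The edgeR log2 difference of white minus red was -1.92 ± 0.74 (SE), with an adjusted p of 0.0746, where 31.3% of 11374 genes were called. The lateral meniscus had a ratio of white over red of 0.716 (0.649 to 0.791), and the medial meniscus one of 0.0433 (0.0310 to 0.0591). Both are below 1, with the medial one far lower. They are ratios of CPM with no TMM scaling, where the median log2 difference of all genes in matrix cells was -0.33. Fits without 1 library had no meniscus term, so they mix zone with meniscus. Without the medial white library such a fit gave a log2 difference of 0.28, and without the lateral white library -4.77. The fitted value thus turned on which white library entered it, while each meniscus on its own was lower in white by pooled CPM. White and red matrix cells fell mostly into different clusters, and the part of this was not tested. In lateral cells the ANGPTL7 cluster had 129 CPM (103 to 158) in white and 118 CPM (74.8 to 177) in red. The MYOC cluster had 62.4 CPM and 140 CPM there. In medial cells the ANGPTL7 cluster had 2.30 CPM in white and 22.7 CPM in red.

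Over all cells the log2 difference was -0.78 ± 0.55 (SE), with an edgeR adjusted p of 0.302, where 39.3% of 12481 genes were called. The ratio of white over red was 0.977 in lateral and 0.160 (0.134 to 0.190) in medial libraries. In fits with no meniscus term, the log2 difference was 0.79 without the medial white library, 0.26 without lateral red and -2.53 without lateral white. With no TMM scaling the all-cell and matrix differences were called, at -1.28 and -2.25, with edgeR adjusted p of 0.0278 and 0.0021, while the median of all genes then shifted to -0.50 and -0.33.

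SHOX2 was set beside other genes of limb patterning. Of 46 genes for the axes, identity and mesenchyme of the limb, 41 were in the files, 6 of them at 0 UMIs, and 22 had at least 100 UMIs in matrix cells. In matrix cells 0 of these 22 were at least 2-fold higher in lateral than in medial white, where 2.73% of all 9493 genes were. In both zones 0 were at least 2-fold higher, as SHOX2 itself was not in red, and 1 was at least 2-fold lower, where 0.421% and 0.327% of all genes were. A 0 among 22 genes is near that background, and nothing about the list is read from it. Listed genes below 100 UMIs in matrix cells were left out of these counts. On few UMIs, some of them were at least 2-fold higher in lateral in both zones and others at least 2-fold lower. The median ratio of the 22 was 0.838 in white and 1.04 in red, against 0.910 and 0.961 over all genes. The symbols SHOX, TWIST1, TWIST2, TBX15 and SALL4 were matched to no feature.

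Limb identity genes were within 2-fold between the menisci in matrix cells. PITX1, which sets hindlimb identity, stood at 52.8 CPM in lateral white, 60.8 CPM in medial white, 80.9 CPM in lateral red and 55.3 CPM in medial red matrix cells. TBX4, its hindlimb partner, stood at 3.88, 5.68, 12.1 and 9.73 CPM, and TBX5, best known from the forelimb, at 3.42, 5.25, 7.82 and 14.8 CPM in the same order. Their ratios of lateral over medial ran from 0.651 to 0.869 in white and from 0.529 to 1.46 in red. Over all cells the red ratio of TBX5 was lower, at 0.457.

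PRRX1, a homeobox gene of limb mesenchyme, was present in matrix cells of all 4 libraries at 388 CPM in lateral white, 466 CPM in medial white, 474 CPM in lateral red and 533 CPM in medial red. Its ratios were 0.833 in white and 0.889 in red. DLX5, a homeobox gene of distal limb and bone, was the 1 of the 22 genes at least 2-fold lower in lateral in both zones. It stood at 20.1 CPM in lateral and 41.6 CPM in medial white, a ratio of 0.483. In red it stood at 2.90 CPM in lateral and 13.2 CPM in medial, a ratio of 0.220. PRRX1 was thus within 2-fold between the menisci, and DLX5 ran opposite to SHOX2 in matrix cells, but over all cells its red ratio was 0.687.

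In single zones, 3 of the 22 were at least 2-fold higher in lateral red and 2 were at least 2-fold lower in lateral white, where 2.23% and 3.74% of all 9493 genes were. At least 2-fold lower in lateral red was 1, DLX5, where 1.71% of all genes were. They are named here after their values were seen. HOXC10 and HOXD10, genes of the HOX clusters that pattern the limb along its length, had red ratios of 4.26 and 3.73 and white ratios of 1.86 and 0.603. GREM1, a secreted BMP antagonist, had 2.12 in red and 1.69 in white, and TBX3, a T-box repressor, had 0.301 in white and 0.563 in red. The fifth is DLX5.

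Genes that act with or downstream of SHOX2 in the growth plate, as studied mainly in mouse, were read from a second list of 15, of which 9 had at least 100 UMIs in matrix cells and 4 had 0 UMIs. In the red zone 3 of the 9 were at least 2-fold higher in lateral, where 2.23% of all 9493 genes were, with a median ratio of 1.73, against 0.961 over all genes. SOX9, the transcription factor that establishes cartilage, was among them, at 157 CPM in lateral red and 69.3 CPM in medial red, a ratio of 2.26. In the white zone SOX9 ran the other way, at 292 CPM in lateral and 391 CPM in medial, a ratio of 0.746. The other two, named after their values were seen, were SOX5 (2.22), a partner of SOX9, and GDF5 (2.57), a growth factor of joint formation. In the white zone none was 2-fold apart other than PTHLH, the PTH-related peptide, for which no fold is given at 1 UMI in lateral and 0 in medial. The red matrix cells also differed in makeup. Each cluster that held most white matrix cells had more lateral (of 2354) than medial (of 3100) red matrix cells. That led by ANGPTL7 and OMD had 107 and 62, and that led by WIF1 and ENPP2 had 34 and 8. The part of this makeup in the red ratios was not tested.

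**Figure D4:**
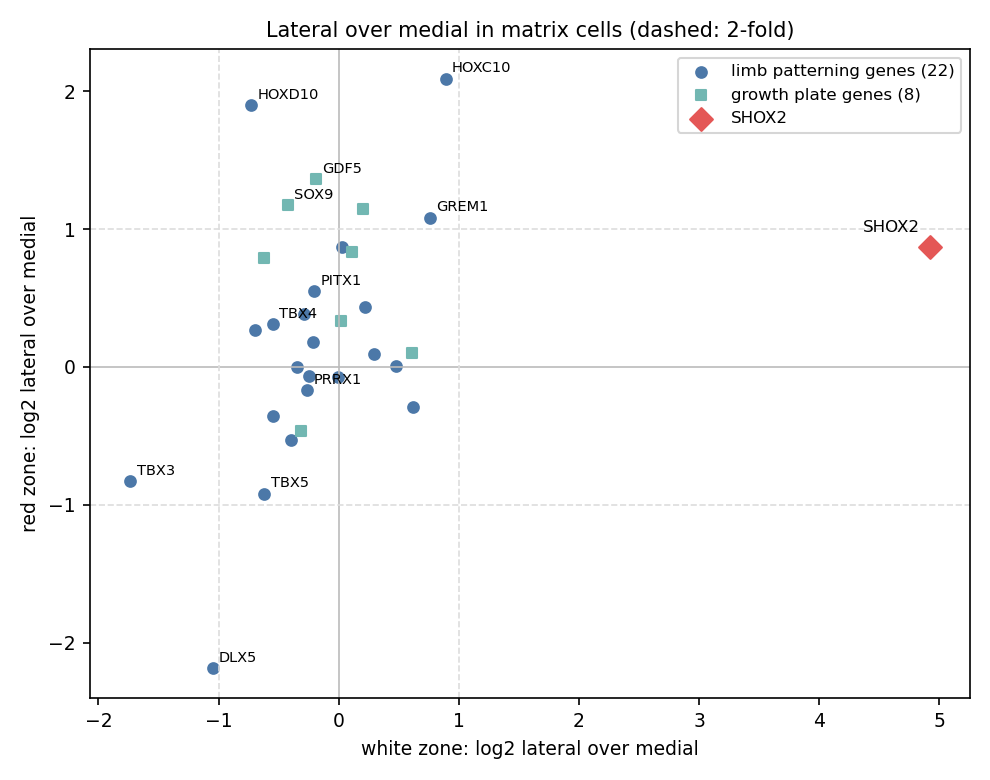
Log2 ratio of lateral over medial in matrix cells, white zone across and red zone up, for 22 limb patterning genes, 9 growth plate genes (8 are drawn, since PTHLH has 0 UMIs in medial white) and SHOX2; each point compares 1 library with 1 library and dashed lines mark 2-fold. SHOX2 lies at 4.92 in white and 0.87 in red, and the other genes drawn lie between -1.73 and 0.89 in white.

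The genes whose levels ran most like SHOX2 were sought over 11 sums of matrix, vascular and immune cells per library, among 3263 genes. Sums of at least 50 cells were used, which leaves out the 45 immune cells of medial white. These sums share 4 libraries and their depths, so Pearson's r is given as a description with no p. The 8 highest were GSN (0.905), which encodes the actin-severing protein gelsolin, RSRP1 (0.900), HEXIM1 (0.894), an inhibitor of transcription elongation, FOSB (0.879), an AP-1 subunit, BCL7C (0.860), PGRMC1 (0.860), CDC42BPA (0.853), a kinase bound by CDC42, and PPHLN1 (0.852). Their matrix ratios of lateral over medial lay between 0.923 and 2.20 in white and between 0.861 and 1.40 in red. They therefore ran with SHOX2 over these sums, without its white-zone ratio of 30.3. The vascular sums pool mural with endothelial cells, so likeness across the finer groups was not tested. Pearson's r also takes no account of the size of a change. SHOX2 ran from 2.00 to 154 CPM over the sums, and PPHLN1, for example, from 21.0 to 65.6 CPM.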

How the data were processed

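Per the submitters' processing notes, the authors made the deposited UMI counts per gene and barcode with Cell Ranger 6.1.2 on Sscrofa11.1, and the count matrices hold filtered barcodes. Cells were kept with at least 500 UMIs, 200 genes and at most 20% mitochondrial UMIs. A cell joined a type with at least 3 UMIs from at least 2 of its markers, and matrix with at least 10 matrix UMIs and no other type. Cells with markers of more than 1 type were set aside as mixed, which stands in for a doublet caller, and the rest as unassigned. From the type rule 15 listed markers were taken out after their levels were seen. Clusters used Leiden at resolution 1.0 on 30 principal components, 15 neighbours and 2000 variable genes without SHOX2 (scanpy 1.11.5). CPM is SHOX2 UMIs per 1000000 UMIs of the same cells, and thinned shares are expected values at 1000 UMIs. Zones were tested with edgeR 4.0.16 (TMM, filterByExpr, adjusted p below 0.05), and with DESeq2 1.42.0 as an alternative. The edgeR test was also run on simulated data, from which nothing about these libraries is read. Counts of genes past 2-fold took genes with at least 100 UMIs in the cells compared. Likeness to SHOX2 used log2(CPM + 5). Named were SHOX2, its nearest neighbours, PITX1, TBX4, TBX5, PRRX1, SOX9 and SHOX, listed genes at least 2-fold apart the same way in both zones, and the 8 genes most like SHOX2. SHOX2 and all lists were chosen with earlier results of these data known.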

Additional observations from a re-analysis of the deposited data

Results flagged for a closer look

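SHOX2 ran in opposite directions between zones in mural and in matrix cells. In mural cells the log2 ratio of white over red was 1.23 for lateral and 1.75 for medial libraries. In matrix cells it was -0.48 for lateral and -4.53 for medial libraries. Pooled over clusters, both menisci were higher in white for mural cells and lower in white for matrix cells. That is why these values are listed. The values carry no TMM scaling, and without it the median gene of matrix cells stood at -0.33. The difference between the cell groups was not tested.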

How the results depend on the processing

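The 4 ratios of lateral over medial kept their direction under every alternative run: 8.25 to 9.99 for all white cells, 29.8 to 33.6 for white matrix cells, 1.36 to 1.55 for all red cells and 1.68 to 1.92 for red matrix cells, with the lowest red value, 1.36, from the mean of per-cell shares. Thinning to 1000 UMIs lowered the shares of cells with SHOX2 to 9.17% (lateral white), 0.268% (medial white), 11.7% (lateral red) and 6.83% (medial red) in matrix cells, to 8.02% and 6.52% in lateral and medial red vascular cells and to 15.2% and 12.9% in lateral and medial red mural cells, and left 0 in lateral white immune cells. With types taken from clusters, endothelial cells had 0 CPM in lateral red and 0.662 CPM in medial red. The zone differences (log2 white minus red, edgeR adjusted p) moved with the scaling and the filter. Without TMM they were -1.28 (0.0278) over all cells and -2.25 (0.0021) in matrix cells, and without the filter on low counts -0.77 (0.037) and -1.89 (1.08e-11). Leaving out 1 library at a time gave -2.53 to 0.79 over all cells, reversed to 0.79 without medial white and to 0.26 without lateral red, and -4.77 to 0.28 in matrix cells, reversed to 0.28 without medial white. In mural cells it gave 1.26 to 1.56. These fits had no meniscus term, so they mix zone with meniscus. In them the lone library of a zone is assumed to vary like the other zone's. With no replicate block, that is without the meniscus as a term, the differences were -0.085 over all cells, -0.70 in matrix cells and 1.45 in mural cells, with calls as before. With DESeq2 they were -0.84 (adjusted p 0.666), -2.17 (0.405) and 1.46 (0.0357). The cause of these moves was not tested. Leaving out barcode sequences found in 2 libraries changed no direction or call. With 1 library for each meniscus and zone, depth limits the endothelial, immune and medial white matrix values, which rest on 44 UMIs or fewer, and the white mural values, which rest on 40 and 56.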

Other observations

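Cells set aside as mixed, with markers of more than 1 type, held SHOX2 at 151 CPM in lateral white (83 cells), 90.2 CPM in medial white (104 cells), 119 CPM in lateral red (218 cells) and 71.8 CPM in medial red (396 cells), at median depths of 2846.5 to 3419 UMIs. The unassigned cells stood at 142, 133, 86.1 and 86.8 CPM in that order, at median depths of 823 to 895 UMIs. In medial white the 33 UMIs of mixed cells are set against 44 UMIs in all its matrix cells.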
